A study of Mus musculus with 21 samples.

Results

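The matrix metalloproteinases Mmp8, Mmp9, Mmp12, Mmp13 and Mmp14, their tissue inhibitors Timp1, Timp2 and Timp3, and the membrane-bound ADAM proteases Adam8 and Adam17 were described in mouse RAW264.7 cells and in mouse liver. The 10 genes were taken by symbol. All 10 were found among the 35550 genes listed for the cells, and 7 among the 5298 genes listed for liver, where Mmp9, Mmp14 and Timp3 have no row. RAW264.7 is a mouse macrophage-like cell line, and LPS is the bacterial lipopolysaccharide that activates macrophages through the receptor TLR4. In the 12 h experiment the groups were Vim-KO cells with 1 µg/mL LPS, Vim-KO cells with PBS, WT cells with 1 µg/mL LPS and WT cells with PBS, and Vim encodes the intermediate filament protein vimentin. In the 24 h experiment WT cells received 1 µg/mL LPS together with 0.5 mM CTM, LPS at the same dose, or PBS. Each of these 7 cell groups had 2 libraries. CTM is a compound that the labels do not spell out, and they do not say whether the Vim-KO cells are 1 clone or a pool.

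Liver was sampled in 7 groups of 1 library each, all from C57BL/6J mice injected intraperitoneally. The groups were TG2-KO mice (lacking transglutaminase 2, encoded by Tgm2) with 30 mg/kg LPS, TG2-KO mice with PBS, WT mice depleted of liver macrophages with LPS, WT mice without that depletion with LPS, WT mice with 30 mg/kg LPS plus 100 mg/kg CTM, WT mice with 30 mg/kg LPS, and WT mice with PBS. The LPS dose of the depletion pair, the way of depletion, the time after injection and the age of the mice are not given in the labels. Levels are TPM, a transcript abundance scaled by gene length and to the same total in each library, so the sequencing depth behind a value is unknown.

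Matrix metalloproteinases are zinc-dependent proteases that are made as inactive precursors and cut collagens, elastin, laminins and other extracellular proteins once the propeptide is removed. TIMPs bind the active site of these enzymes and block it, and Timp3 also blocks several ADAM proteases. ADAM proteases release the outer parts of membrane proteins, and Adam17 is the enzyme that frees TNF from the surface of macrophages. In liver the family takes part in leukocyte entry and in the remodelling of matrix after injury.

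The labels of the engineered lines were checked first. Vim had 30.8 and 33.0 TPM in Vim-KO LPS libraries and 17.0 and 18.7 TPM in Vim-KO PBS libraries, against 1375 and 1461 TPM in WT LPS and 1930 and 1877 TPM in WT PBS libraries. Tgm2 had 15.5 TPM in the TG2-KO LPS liver and 0.74 TPM in the TG2-KO PBS liver, against 425 TPM in the WT LPS liver and 35.7 TPM in the WT PBS liver. Of the macrophage markers, 7 of 8 averaged 1 TPM or more in each cell experiment, while none of the 6 hepatocyte markers and none of the 7 Kupffer cell markers did. Of the 11 neutrophil markers, S100a8 and Csf3r had such a mean, and the other 9 did not.

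In WT cells at 12 h, LPS went with higher levels of Mmp9, Mmp12, Mmp13 and Timp1, and in Vim-KO cells the genes parted. Under LPS the Mmp13 mean of Vim-KO cells was 55.5% of the WT mean, those of Mmp9 and Timp1 were under 10% of it, and the Mmp12 difference missed the threshold. Of the 10 genes, 6 averaged 1 TPM or more across the 8 libraries and were tested: Mmp9, Mmp12, Mmp13, Timp1, Adam8 and Adam17. Mmp8, Mmp14, Timp2 and Timp3 fell below that limit. All changes below are differences of log2(TPM + 1) from limma with Benjamini-Hochberg adjustment across the 11115 genes fitted and a threshold of 0.05; this scale understates the change of low genes.

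**Figure D1:**
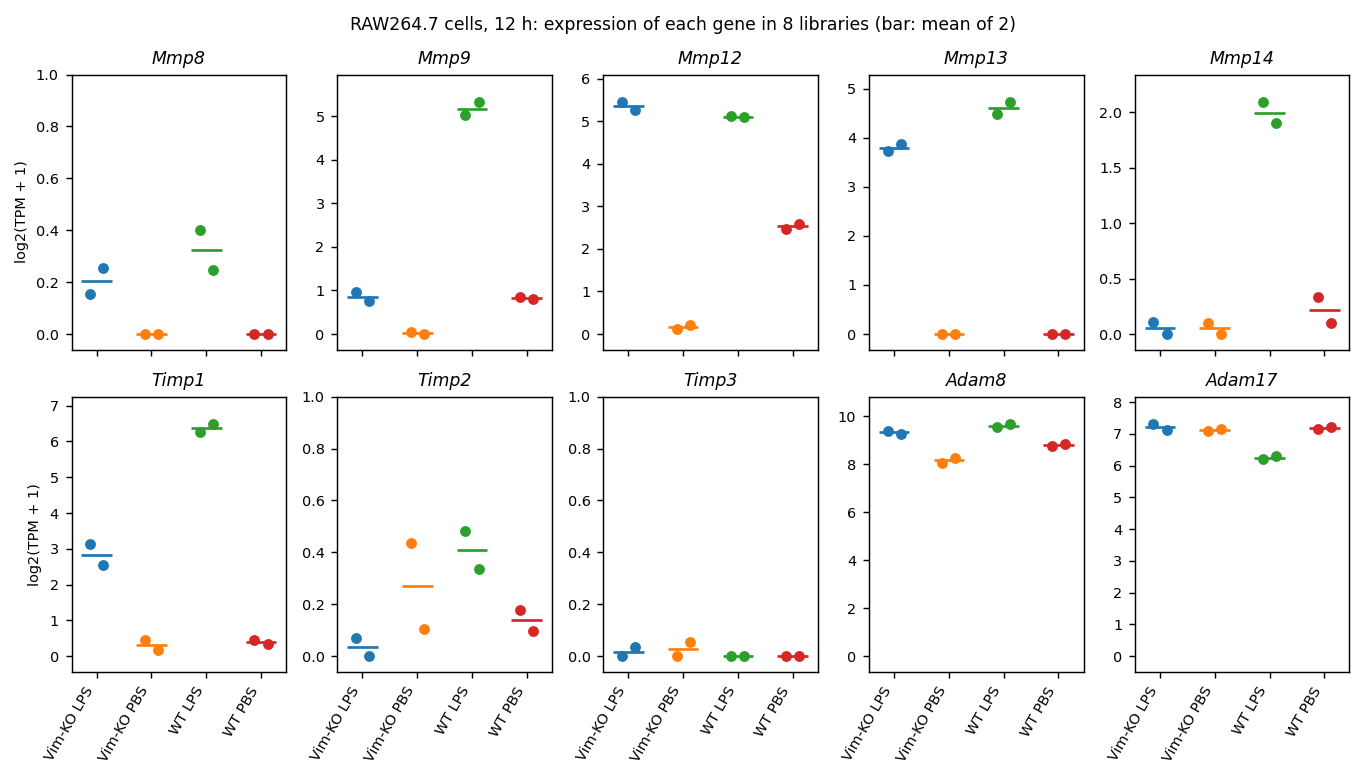
Level of each of the 10 genes at 12 h, as log2(TPM + 1) on an axis of its own for each gene, for Vim-KO LPS, Vim-KO PBS, WT LPS and WT PBS cells; a point is a library and a bar the mean of 2. Mmp9, Mmp14 and Timp1 are highest in the 2 WT LPS libraries, while Mmp12 and Mmp13 are high in the LPS libraries of both genotypes.

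Mmp9, gelatinase B, cuts denatured collagen and the collagen of basement membranes. The gene lies on chromosome 2 at 164940780 to 164955850 on the plus strand (GRCm38). Under LPS it had 0.942 and 0.682 TPM in Vim-KO cells, against 31.7 and 38.8 TPM in WT cells. With PBS it had 0.0290 and 0 TPM in Vim-KO cells, against 0.796 and 0.741 TPM in WT cells. The 2 Vim-KO LPS libraries thus overlapped with the WT PBS libraries, and both WT LPS libraries lay above all others. The Vim-KO LPS mean was 2.30% of the WT LPS mean, a difference of -4.32 ± 0.16 (SE; limma adjusted p = 8.92e-07). LPS raised Mmp9 in both genotypes, by 0.83 ± 0.16 in Vim-KO cells (limma adjusted p = 1.83e-03) and by 4.35 ± 0.16 in WT cells (limma adjusted p = 2.05e-07). On this scale the 2 changes differed (-3.52 ± 0.22, limma adjusted p = 5.71e-05, interaction of LPS and genotype). Without LPS, Vim-KO cells were lower too (-0.80 ± 0.16, limma adjusted p = 4.44e-03), at 1.88% of the WT mean. As a share of WT, Vim-KO cells thus stood at least as low with PBS as with LPS. The difference of the 2 changes depends on the pseudocount of 1 TPM: with 0.1 TPM it was -2.35 ± 0.43 (limma adjusted p = 9.58e-03).

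Mmp12, macrophage elastase, and Mmp13, collagenase 3, are neighbours in a run of 10 Mmp genes on chromosome 9 that spans 427072 bases from 7272514 to 7699585 (GRCm38). Mmp13 lies at 7272514 to 7283331 and Mmp12 at 7344381 to 7369499, both on the plus strand. The bases just before a start of each of this pair are shown. Of the listed Mmp12 starts, only the one with an AP-1 match is shown, so a match in both genes carries no weight. Any part of it in the rise of both genes with LPS was not tested. Of the 10 genes, 9 have an entry among the RefSeq promoters (GRCm38.p6), with 10 start sites. Mmp9 has no entry, so its promoter was not searched. The 80 bases before the second listed start of Mmp12 and before the start of Mmp13, on the plus strand, hold an AP-1 motif in capitals in both and a TATAAA box in capitals in Mmp13.
Mmp12, chr9:7347294-7347373: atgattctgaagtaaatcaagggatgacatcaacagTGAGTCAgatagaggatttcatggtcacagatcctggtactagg
Mmp13, chr9:7272434-7272513: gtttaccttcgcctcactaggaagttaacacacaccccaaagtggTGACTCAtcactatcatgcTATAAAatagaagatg
The AP-1 letters searched were TGANTCA on both strands, in the 250 bases before each start. The first listed start of Mmp12, base 7344397 at the 5′ end of the gene, had no such match, and the second lies inside the gene. The AP-1 letters stood at -35 to -29 in Mmp13 and at -44 to -38 before the second start of Mmp12, in no other of the 9 genes, and in 6.75% of the 32851 promoters. The letters TATAAA stood in Mmp13 only, at -16 to -11, against 12.4% of all promoters. The NF-kB letters, GGG and CC with 5 bases of any kind between them, stood in 4 of the 9 genes (Adam17, Mmp12, Timp1 and Timp3), a share close to the 45.8% of all promoters. A match is a description of letters, not a bound site.

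Mmp12, which cuts elastin, had 42.4 and 37.6 TPM in Vim-KO LPS cells, against 33.5 and 33.4 TPM in WT LPS cells. With PBS it had 0.0886 and 0.151 TPM in Vim-KO cells, against 4.56 and 5.02 TPM in WT cells. Vim-KO cells thus began far lower and ended at or a little above the WT level. The difference between genotypes was -2.37 ± 0.11 with PBS (limma adjusted p = 2.46e-06), where the Vim-KO mean was 2.50% of the WT mean. With LPS it was 0.25 ± 0.11 and missed the threshold (limma adjusted p = 0.0920; 95% interval 0.003 to 0.49). The rise with LPS was 5.19 ± 0.11 in Vim-KO cells and 2.58 ± 0.11 in WT cells, and the 2 rises differed by 2.62 ± 0.15 (limma adjusted p = 3.78e-05). The 3′ end of Mmp12 overlaps Mmp1b on the opposite strand by 1261 bases, and Mmp1b reached at most 0.847 TPM at 12 h.

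Mmp13, which cuts fibrillar collagens, was listed at 0 in all 4 PBS libraries of both genotypes. Under LPS it had 12.3 and 13.7 TPM in Vim-KO cells, against 21.3 and 25.5 TPM in WT cells. The Vim-KO LPS mean was 55.5% of the WT LPS mean, a difference of -0.80 ± 0.14 (limma adjusted p = 2.35e-03). The rise with LPS was 3.81 ± 0.14 in Vim-KO and 4.60 ± 0.14 in WT cells, sizes that depend on the pseudocount since PBS is at 0. The interaction of -0.80 ± 0.19 (limma adjusted p = 0.0250) is the same number, since both PBS groups are at 0, and its call did not hold when single libraries were left out (adjusted p up to 0.0900) or with a pseudocount of 0.1 (adjusted p = 0.167).

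Mmp14, a membrane-anchored protease that activates other metalloproteinases, had 0.0778 and 0 TPM in Vim-KO LPS cells, against 3.25 and 2.74 TPM in WT LPS cells. With PBS it had 0.0719 and 0 TPM in Vim-KO cells, against 0.259 and 0.0681 TPM in WT cells. Its mean over the 8 libraries was under the limit of 1 TPM, and it was tested only in the fit without that limit. There the difference between Vim-KO and WT cells under LPS was -1.94 ± 0.11 (limma adjusted p = 2.05e-04) and that of the LPS changes -1.78 ± 0.16 (limma adjusted p = 2.27e-03). Mmp8, neutrophil collagenase, had 0.114 and 0.192 TPM in Vim-KO LPS cells and 0.320 and 0.188 TPM in WT LPS cells, and was listed at 0 in all 4 PBS libraries. Its LPS groups overlapped between the genotypes.

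Timp1, a secreted inhibitor of most matrix metalloproteinases that binds the Mmp9 precursor, lies on the X chromosome at 20870166 to 20874735 on the plus strand, inside Syn1 on the opposite strand. It had 7.76 and 4.80 TPM in Vim-KO LPS cells, against 75.8 and 88.1 TPM in WT LPS cells. With PBS it had 0.373 and 0.134 TPM in Vim-KO cells and 0.357 and 0.253 TPM in WT cells, which overlap. The Vim-KO LPS mean was 7.67% of the WT LPS mean, a difference of -3.54 ± 0.21 (limma adjusted p = 9.59e-06). LPS raised Timp1 by 2.51 ± 0.21 in Vim-KO and by 5.99 ± 0.21 in WT cells (limma adjusted p = 1.74e-07 in WT), and the 2 rises differed (-3.47 ± 0.29, limma adjusted p = 1.86e-04). With PBS the difference between genotypes was -0.064 ± 0.21 and missed the threshold (limma adjusted p = 0.829; 95% interval -0.54 to 0.42). Syn1 reached at most 1.64 TPM at 12 h.

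Of the other inhibitors, Timp2, which blocks matrix metalloproteinases and helps Mmp14 activate Mmp2, had at most 0.397 TPM in any 12 h library. Timp3, which binds to the matrix, was listed at 0 in 6 of 8 libraries and reached 0.0384 TPM at most. Timp1 was therefore nearly the whole of the Timp level in every LPS library.

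**Figure D2:**
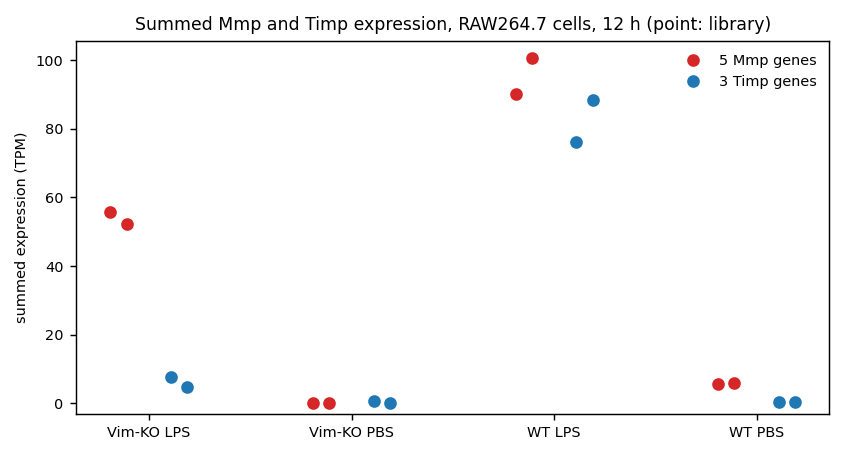
Summed level (TPM) of the 5 Mmp genes (red) and the 3 Timp genes (blue) at 12 h, for Vim-KO LPS, Vim-KO PBS, WT LPS and WT PBS cells; each point is a library. In Vim-KO LPS cells the Mmp sum is 55.9 and 52.2 TPM beside a Timp sum of 7.81 and 4.83 TPM, while in WT LPS cells the Mmp sum is 90.1 and 100.6 TPM beside a Timp sum of 76.2 and 88.4 TPM.

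The summed Mmp level under LPS was 55.9 and 52.2 TPM in Vim-KO cells, against 90.1 and 100.6 TPM in WT cells. The summed Timp level was 7.81 and 4.83 TPM in Vim-KO LPS cells, against 76.2 and 88.4 TPM in WT LPS cells. The Mmp sum was thus 7.15 and 10.8 times the Timp sum in Vim-KO LPS cells, against 1.18 and 1.14 times in WT LPS cells. These are sums of transcript levels and were not tested. In PBS the order of the genotypes was the other way, with ratios of 0.261 and 0.614 in Vim-KO cells, against 11.5 and 18.0 in WT cells, which rest on the Mmp12 of WT cells and on Timp levels under 1 TPM.

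Adam17, the TNF-releasing protease on chromosome 12 (21323509 to 21373632, minus strand), had 156.2 and 138.0 TPM in Vim-KO LPS cells, against 72.6 and 77.7 TPM in WT LPS cells. With PBS it had 134 and 141 TPM in Vim-KO cells, against 142 and 148 TPM in WT cells. The WT LPS libraries were the low ones, and the other 6 lay within 134 to 156 TPM. LPS lowered Adam17 in WT cells (-0.94 ± 0.077, limma adjusted p = 1.64e-05), while the change in Vim-KO cells was 0.092 ± 0.077 and missed the threshold (limma adjusted p = 0.324; 95% interval -0.087 to 0.27). The 2 changes differed by 1.03 ± 0.11 (limma adjusted p = 5.75e-04), and under LPS the Vim-KO mean was 1.96 times the WT mean (0.96 ± 0.077, limma adjusted p = 5.03e-05). When libraries were scaled to their median ratio, the Vim-KO change with LPS became 0.35 and passed the threshold (adjusted p = 2.57e-03). Adam17 overlaps Iah1 on the opposite strand by 311 bases, and Iah1 reached 44.3 TPM.

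Adam8, a protease of myeloid cells that cuts adhesion molecules, lies on chromosome 7 (139978932 to 139992562, minus strand) and had the highest level of the 10 genes in every cell library. It had 674.5 and 618 TPM in Vim-KO LPS cells and 265.3 and 306 TPM in Vim-KO PBS cells, against 755 and 806 TPM in WT LPS and 435 and 452 TPM in WT PBS cells. LPS raised Adam8 by 1.18 ± 0.083 in Vim-KO cells and by 0.81 ± 0.083 in WT cells. The difference of these changes, 0.36 ± 0.12, missed the threshold (limma adjusted p = 0.0634). With PBS, Vim-KO cells were lower (-0.64 ± 0.083, limma adjusted p = 5.70e-04). Under LPS they were lower (-0.27 ± 0.083, limma adjusted p = 0.0286), a call that did not hold without either WT LPS library (adjusted p of 0.0542 and 0.140) or without 1 Vim-KO LPS library (0.113).

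**Figure D3:**
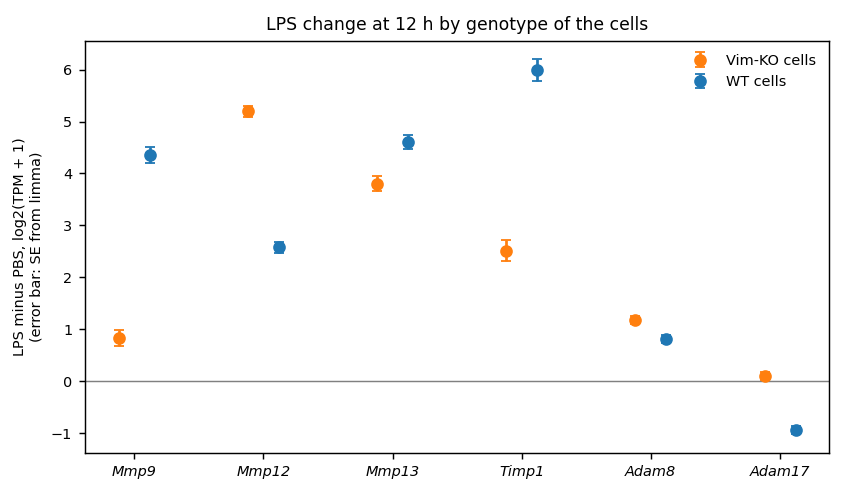
Change with LPS at 12 h, as the LPS minus PBS difference of log2(TPM + 1), for the 6 tested genes in Vim-KO cells (orange) and WT cells (blue); points are limma estimates and bars their SE. On this scale the change is larger in WT cells for Mmp9 and Timp1 and larger in Vim-KO cells for Mmp12, while for Adam17 it is 0.092 in Vim-KO cells and -0.94 in WT cells. As a share of WT, Mmp9 in Vim-KO cells was about as low with PBS (1.88%) as with LPS (2.30%), so its gap in the plot rests on the pseudocount.

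Over the 6 tested genes, LPS gave 5 higher and 0 lower in Vim-KO cells, where 66.4% of all genes tested passed (20.5% higher, 45.8% lower), and 5 higher and 1 lower in WT cells, where 70.9% passed (17.8% higher, 53.1% lower). Vim-KO against WT cells gave 0 higher and 3 lower with PBS (background 43.0%, with 17.7% higher and 25.4% lower) and 1 higher and 4 lower with LPS (background 44.7%, with 24.1% higher and 20.6% lower). The interaction gave 2 higher and 3 lower (background 20.6%, with 13.7% higher and 6.96% lower). Mmp9, Mmp13 and Timp1 reached the limit of 1 TPM through LPS libraries, so these counts and the median change of the 6 carry no weight as support. The median change of the 6 was 1.85 in Vim-KO and 3.46 in WT cells, beside -0.23 and -0.35 for all genes. The median of all genes was shifted by -0.24 in Vim-KO cells and -0.35 in WT cells relative to libraries scaled to their median ratio. The scaling moved the share of called genes that were higher with LPS to 50.3% in Vim-KO and 51.1% in WT cells, against 31.0% and 25.2% unscaled, and no called change of the 6 genes turned its sign under that scaling.

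The marker S100a8, a calcium-binding protein of neutrophils and activated macrophages, moved in the same direction as Mmp9 and Timp1. It had 13.1 and 12.9 TPM in Vim-KO LPS cells and 0.850 and 0.275 TPM in Vim-KO PBS cells, against 908 and 892 TPM in WT LPS and 0.761 and 1.62 TPM in WT PBS cells. Over the 11 neutrophil markers the summed level was 14.4 to 14.7 TPM in Vim-KO LPS cells, against 896 to 912 TPM in WT LPS cells, nearly all of it S100a8. The defining neutrophil markers Ly6g, Retnlg, Ngp and Ltf were listed at 0 in all 8 libraries, and Csf3r fell with LPS in both genotypes. The summed level of the 8 macrophage markers was 11278 to 11995 TPM in Vim-KO LPS and 8949 to 8974 TPM in Vim-KO PBS cells, against 13727 to 14521 TPM in WT LPS and 17400 to 17487 TPM in WT PBS cells. The part of these markers in the differences between the genotypes was not tested.

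Other genes of the pathway were taken from fixed lists. Of 18 other matrix metalloproteinases, Mmp19 was tested, and it fell with LPS in Vim-KO cells (-1.02 ± 0.14, limma adjusted p = 3.45e-04) and in WT cells (-1.13 ± 0.14, limma adjusted p = 1.78e-04). Of 12 other ADAM proteases, 4 were tested; LPS gave 1 higher and 1 lower in Vim-KO cells (background 66.4%) and 2 higher and 2 lower in WT cells (background 70.9%). Adam10, which cuts Notch and many adhesion proteins, fell (-1.48 ± 0.12 in Vim-KO and -1.47 ± 0.12 in WT cells). Its levels were 64.6 and 51.5 TPM in Vim-KO LPS cells, against 171 and 156 TPM in Vim-KO PBS cells. The difference of its changes, Vim-KO minus WT, was -0.019 ± 0.16 (limma adjusted p = 0.950; 95% interval -0.40 to 0.36). Adam33 had 0.700 and 1.08 TPM in Vim-KO LPS cells, against 15.4 and 11.02 TPM in WT LPS cells (-2.90 ± 0.21, limma adjusted p = 3.24e-05). None of 8 other metalloproteinase inhibitors reached 1 TPM.

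Among 16 activators and regulators, 11 were tested, and LPS gave 4 higher and 4 lower in Vim-KO cells and 3 higher and 4 lower in WT cells, shares near those of all genes (66.4% and 70.9%). Furin, the convertase that removes the propeptide of Mmp14 and the ADAMs, had 193 and 153 TPM in Vim-KO LPS cells and 37.5 and 35.7 TPM in Vim-KO PBS cells, against 315 and 423 TPM in WT LPS and 45.5 and 55.6 TPM in WT PBS cells. Furin rose in both genotypes (2.20 ± 0.16 and 2.83 ± 0.16 in Vim-KO and WT cells), and under LPS was lower in Vim-KO cells (-1.08 ± 0.16, limma adjusted p = 1.25e-03). Rhbdf2, the inactive rhomboid iRhom2 that carries Adam17 to the cell surface, rose by 1.32 ± 0.091 in Vim-KO and 1.41 ± 0.091 in WT cells, and under LPS the Vim-KO minus WT difference was -0.0085 ± 0.091 (limma adjusted p = 0.951). Rhbdf2 did not follow the Adam17 pattern: it rose where Adam17 fell.

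Of 20 Adam17 substrates, 9 were tested; under LPS, 3 were higher and 4 lower in Vim-KO than in WT cells (background 24.1% higher and 20.6% lower). Tnf had 1152 and 1036 TPM in Vim-KO LPS cells, against 695 and 738 TPM in WT LPS cells (0.61 ± 0.086, limma adjusted p = 8.95e-04). Tnfrsf1b, the TNF receptor TNFR2, had 306 and 253 TPM in Vim-KO LPS cells, against 984 and 1127 TPM in WT LPS cells (-1.92 ± 0.11, limma adjusted p = 8.45e-06). Csf1r, the receptor for the growth factor CSF1, had 716 and 605 TPM in Vim-KO LPS cells, against 315 and 340 TPM in WT LPS cells (1.01 ± 0.084, limma adjusted p = 5.93e-05). Of 20 matrix substrates, Lamc1 and Col4a5 were tested, and Lamc1, a laminin chain, was lower in Vim-KO LPS cells (-1.03 ± 0.075, limma adjusted p = 3.18e-05).

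The genes whose levels across the 14 cell libraries, centred within each experiment, were most like those of Timp1 were 4930438A08Rik (Pearson r = 0.989), S100a8 (0.985) and Rnd1 (0.981), among 10797 genes. For Mmp12 they were Ifit3 (0.986), Ticam1 (0.981) and Bcl2l11 (0.980), and for Mmp9 Il1f9 (0.972), Notch1 (0.968) and Cxcl3 (0.967). The libraries fall into 7 groups that these values mostly separate, so r describes group levels.

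At 24 h the question was whether CTM given with LPS changes these genes. LPS alone raised Mmp9, Mmp12, Mmp13, Timp1 and Adam8 and lowered Adam17. With CTM added, Mmp12, Mmp13 and Adam8 were lower than with LPS alone, while the differences of Mmp9 and Timp1 missed the threshold. The 2 experiments were quantified and extracted apart, so levels at 12 h and 24 h were not tested against each other.

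Mmp12 had 2.17 and 1.60 TPM with LPS plus CTM, against 4.91 and 8.87 TPM with LPS. The PBS libraries held 0.121 and 0.388 TPM. The 3 groups did not overlap, and LPS plus CTM stood at 27.3% of LPS (-1.41 ± 0.29, limma adjusted p = 0.0126). This call did not hold without the LPS library of 8.87 TPM (-1.04, adjusted p = 0.0593) or without the LPS plus CTM library of 1.60 TPM (-1.27, adjusted p = 0.0784). LPS against PBS gave 2.61 ± 0.29 (limma adjusted p = 1.78e-04).

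Mmp13 had 0.699 and 0.810 TPM with LPS plus CTM. It had 3.54 and 4.63 TPM with LPS, against 0 and 0.124 TPM with PBS. LPS plus CTM stood at 18.5% of LPS (-1.53 ± 0.23, limma adjusted p = 4.26e-03), and LPS alone was higher than PBS by 2.25 ± 0.23 (limma adjusted p = 1.22e-04). LPS plus CTM against PBS gave 0.73 ± 0.23 (limma adjusted p = 0.0321), a call that did not hold when any 1 of its 4 libraries was left out (adjusted p 0.0556 to 0.104).

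Adam8 had 543 and 521 TPM with LPS plus CTM, against 893.5 and 841 TPM with LPS. The PBS libraries held 239 and 257 TPM. LPS plus CTM stood between the other groups, at 61.4% of LPS (-0.70 ± 0.056, limma adjusted p = 5.01e-04), and LPS was 3.496 times PBS (1.80 ± 0.056, limma adjusted p = 5.06e-07).

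Adam17 had 75.9 and 75.8 TPM with LPS plus CTM, against 67.5 and 59.8 TPM with LPS. The PBS libraries held 98.2 and 99.0 TPM. LPS lowered it relative to PBS (-0.63 ± 0.074, limma adjusted p = 2.56e-04). LPS plus CTM was higher than LPS by 0.25 ± 0.074 (limma adjusted p = 0.0438), and that call was lost after scaling to the median ratio (0.17, adjusted p = 0.0887), without the LPS library of 59.8 TPM (0.17, adjusted p = 0.130) and without either LPS plus CTM library (adjusted p of 0.149 and 0.161).

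Mmp9 had 3.26 and 3.42 TPM with LPS plus CTM. It had 2.92 and 3.31 TPM with LPS, against 0.717 and 1.58 TPM with PBS. Its LPS plus CTM and LPS groups overlapped, and their difference was 0.079 ± 0.23 (limma adjusted p = 0.834; 95% interval -0.47 to 0.63). With LPS plus CTM, Timp1 had 3.93 and 3.94 TPM. It had 3.62 and 6.12 TPM with LPS, against 0.291 and 0 TPM with PBS. The 2 LPS libraries stood on either side of the LPS plus CTM libraries, and the difference was -0.22 ± 0.26 (limma adjusted p = 0.568; 95% interval -0.83 to 0.39). LPS against PBS gave 0.97 ± 0.23 for Mmp9 (limma adjusted p = 8.35e-03) and 2.34 ± 0.26 for Timp1 (limma adjusted p = 1.88e-04).

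**Figure D4:**
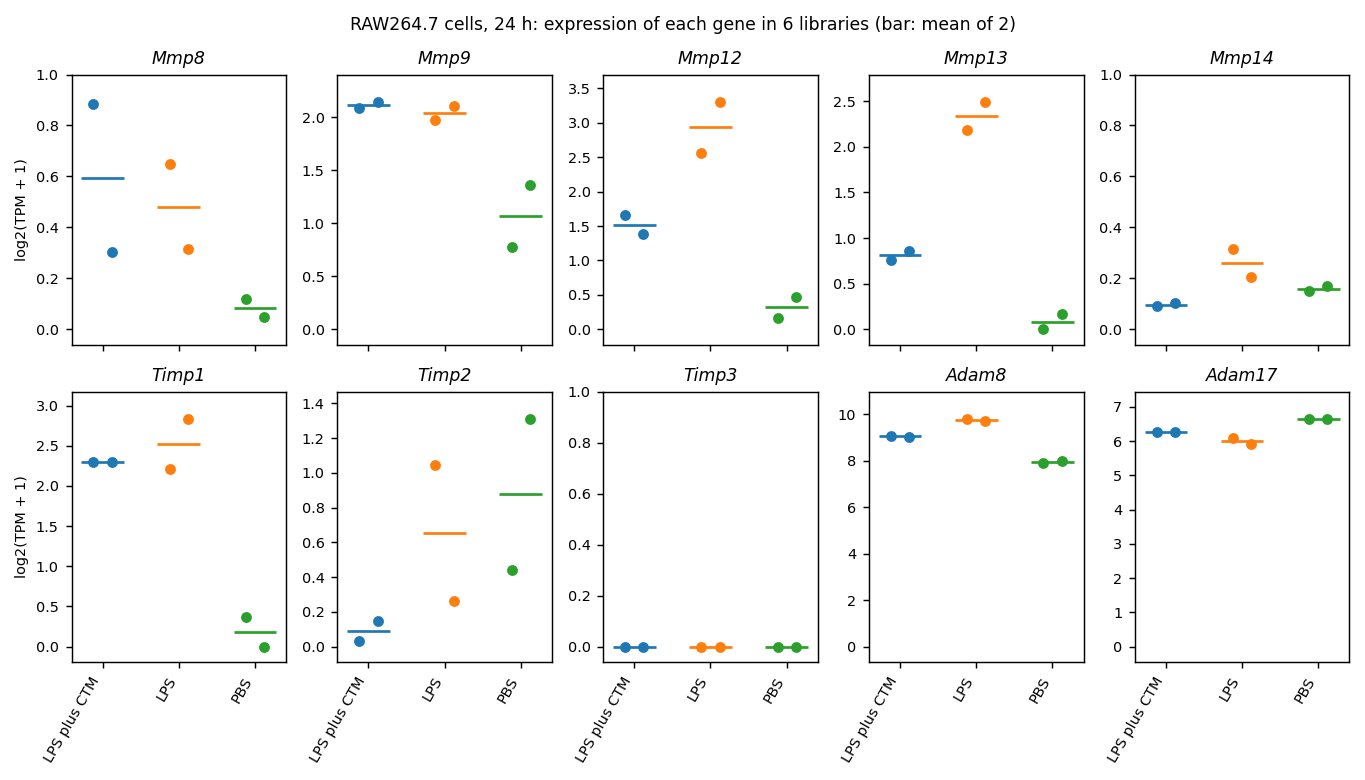
Level of each of the 10 genes at 24 h, as log2(TPM + 1) on an axis of its own for each gene, for LPS plus CTM, LPS and PBS; a point is a library and a bar the mean of 2. Mmp12, Mmp13 and Adam8 with LPS plus CTM lie between LPS and PBS, the Mmp9 and Timp1 points of LPS plus CTM overlap with those of LPS, and Timp3 is at 0 in all 6 libraries.

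The other members were low at 24 h, with Timp2 reaching 1.48 TPM in a PBS library and 1.06 TPM in an LPS library. With LPS plus CTM, Mmp8 had 0.846 and 0.233 TPM. It had 0.566 and 0.245 TPM with LPS, against 0.0867 and 0.0344 TPM with PBS. Mmp14 was at most 0.246 TPM. With LPS plus CTM, Timp2 had 0.0225 and 0.106 TPM. It had 1.06 and 0.201 TPM with LPS, against 0.360 and 1.48 TPM with PBS, and its LPS and PBS groups overlapped. Timp3 was listed at 0 in all 6 libraries. In the fit without the limit of 1 TPM, no 24 h comparison of Mmp8, Mmp14 or Timp2 passed the threshold (lowest limma adjusted p = 0.145).

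Of the 6 tested genes, LPS plus CTM against LPS gave 1 higher and 3 lower, where 25.6% of 11030 genes passed (16.1% higher and 9.45% lower). LPS against PBS gave 5 higher and 1 lower (background 66.0%, with 20.9% higher and 45.1% lower), as did LPS plus CTM against PBS (background 52.9%, with 17.4% higher and 35.5% lower). The 3 comparisons share libraries. Mmp13 reached the limit of 1 TPM through its LPS libraries, and Mmp12 and Timp1 were under 1 TPM with PBS, so these counts and the median carry no weight as support. The median difference of the 6 between LPS plus CTM and LPS was -0.46, beside 0.071 for all genes. With LPS plus CTM, S100a8 had 7.58 and 9.64 TPM. It had 7.30 and 7.99 TPM with LPS, against 0.896 and 0.714 TPM with PBS.

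Of the listed partners at 24 h, Furin had 136 and 104 TPM with LPS plus CTM. It had 268 and 207 TPM with LPS, against 36.8 and 35.7 TPM with PBS, and was lower with CTM (-0.98 ± 0.15, limma adjusted p = 4.55e-03). Of the 11 tested activators and regulators, 2 were higher and 3 lower with LPS plus CTM than with LPS. Of the 9 tested Adam17 substrates, 3 were higher and 6 lower. Over all genes 16.1% were higher and 9.45% lower. Tnfrsf1b had 99.2 and 87.2 TPM with LPS plus CTM, against 290.5 and 296 TPM with LPS (-1.65 ± 0.075, limma adjusted p = 1.39e-04). Tnf had 436 and 417 TPM with LPS plus CTM, against 685 and 616 TPM with LPS (-0.61 ± 0.064, limma adjusted p = 1.24e-03). Adam10 was higher with LPS plus CTM by 0.61 ± 0.087 (limma adjusted p = 3.59e-03).

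In liver each group was 1 library, so differences have no replicate check and no test was made. The listed genes are those whose TPM differ at least 2-fold between the WT LPS and WT PBS livers, so that this pair was chosen on the values and is given as description. Comparisons of the WT LPS or WT PBS liver with another liver reuse values that set the list, so they are description too. All liver background shares below are shares of this list, not of all genes. Timp1 had 37.5 TPM in the WT LPS liver, against 0.30 TPM in the WT PBS liver. Mmp13 had 13.5 TPM with LPS, against 0.06 TPM with PBS. Mmp8 had 1.67 TPM with LPS, against 0.03 TPM with PBS. Adam8 and Mmp12, at 1.16 and 0.81 TPM with LPS, were listed at 0 with PBS. Adam17 had 6.08 TPM with LPS, against 2.94 TPM with PBS, and Timp2 was the one of the 7 that was lower with LPS, at 2.55 TPM against 9.22 TPM with PBS. Below, 2-fold means a difference of at least 1 on log2(TPM + 1); by that measure 5 of the 7 were apart, where the background over the listed genes was 66.9%. The median of all listed genes was -0.94 in this pair, and after scaling to the median ratio Timp2 was at -0.37 and no longer 2-fold apart, while Adam17 (1.91) and Mmp12 (1.125) were. That scaling takes most genes as unchanged, whereas this list leaves out the genes that changed little. It therefore cannot decide which of these differences hold.

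Depletion of liver macrophages went with a low Mmp13 level after LPS. It had 0.19 TPM in the depleted liver, against 15.8 TPM in the non-depleted liver, 1.20% of it (-3.82 on log2(TPM + 1)). The other 6 genes were less than 2-fold apart, where 8.83% of the 5298 listed genes were at least 2-fold apart. Mmp12 had 0.23 TPM in the depleted and 1.15 TPM in the non-depleted liver (-0.81). Mmp8 went the other way, with 5.80 TPM in the depleted and 2.90 TPM in the non-depleted liver (0.80). Timp1 had 30.5 TPM in the depleted and 39.4 TPM in the non-depleted liver (-0.36), Adam17 4.31 and 6.53 TPM (-0.50), Adam8 0.95 and 1.07 TPM (-0.086) and Timp2 4.42 and 3.6 TPM (0.24).

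Of the 7 Kupffer cell markers, 5 are listed, and their summed level was 10.4 TPM in the depleted liver, against 68.5 TPM in the non-depleted liver. Clec4f, a lectin of Kupffer cells, had 0.21 TPM in the depleted and 12.3 TPM in the non-depleted liver. The 6 listed macrophage markers summed the other way, to 559 TPM in the depleted liver, against 345 TPM in the non-depleted liver. Most of that sum was Cd14, with 540 against 291 TPM. Of these 6, 0 were higher and 3 lower at least 2-fold (background 8.83% in either direction). The 7 listed neutrophil markers summed to 237 TPM in the depleted liver, against 123 TPM in the non-depleted liver, but Csf3r and Cxcr2 went the other way, with 2.87 against 9.21 TPM and 0.37 against 1.34 TPM. The 4 listed stellate cell and fibroblast markers summed to 39.0 TPM in the depleted liver, against 8.12 TPM in the non-depleted liver, with Des at 24.5 against 0.36 TPM. In such bulk samples, fewer cells of a type and less RNA per cell cannot be told apart, and the part of these cell types in the Mmp13 and Mmp8 values was not tested.

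**Figure D5:**
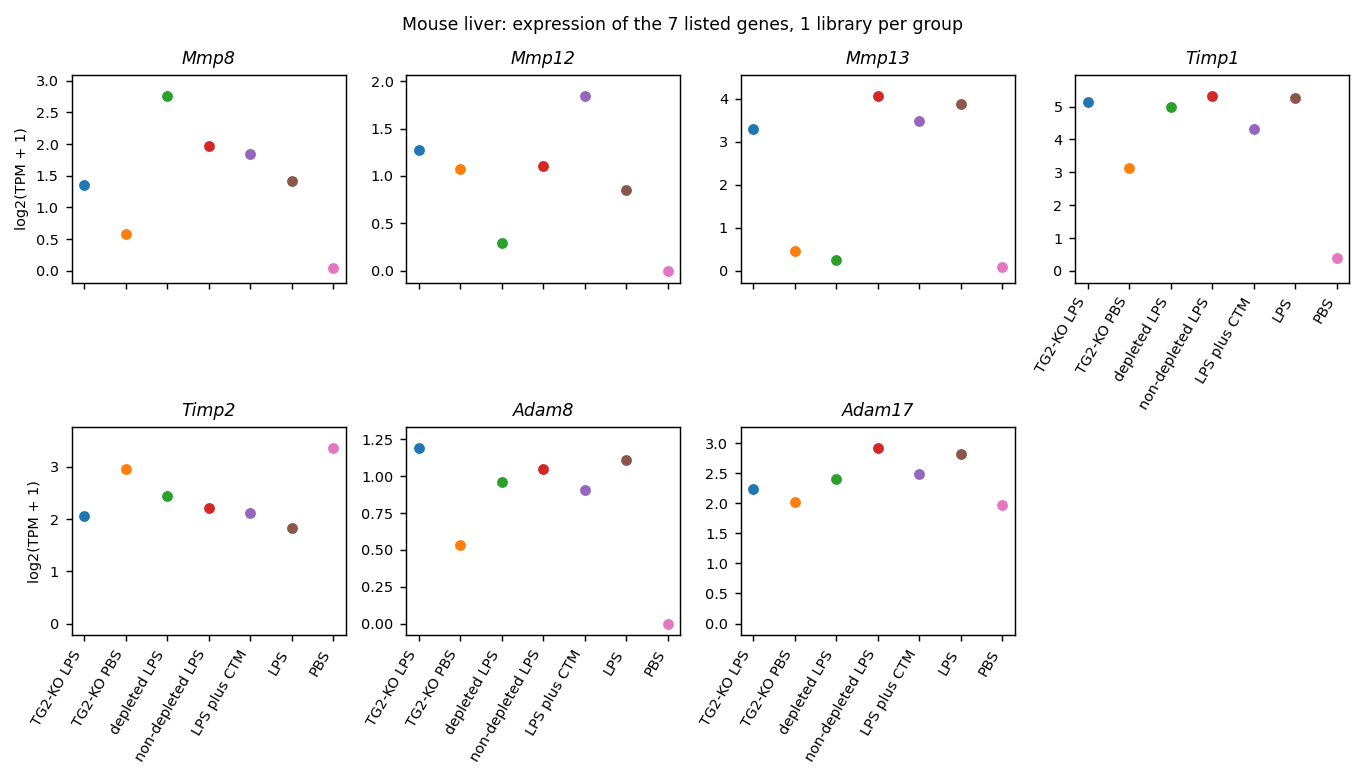
Level of the 7 listed genes in liver, as log2(TPM + 1) on an axis of its own for each gene, with 1 library (1 point) per group. Mmp13 is low in the depleted LPS liver and in both PBS livers and high in the other 4, while Timp1 is high in all 5 LPS livers.

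In the liver of TG2-KO mice, Mmp13 had 8.78 TPM with LPS, against 0.38 TPM with PBS (2.83 on log2(TPM + 1)), and Timp1 had 34.6 TPM with LPS, against 7.81 TPM with PBS (2.01). These 2 of the 7 genes were at least 2-fold apart, where the background was 31.9%. Timp2 had 3.16 TPM with LPS, against 6.74 TPM with PBS (-0.90). Mmp8 had 1.55 TPM with LPS, against 0.49 TPM with PBS (0.77), Adam8 1.28 against 0.45 TPM (0.65), Adam17 3.72 against 3.06 TPM (0.22), and Mmp12 1.42 against 1.11 TPM (0.20).

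Between LPS livers of TG2-KO and WT mice, 0 of the 7 genes were 2-fold apart (background 6.30%). On log2(TPM + 1) the widest gaps were those of Adam17, with 3.72 TPM in TG2-KO and 6.08 TPM in WT (-0.58), and Mmp13, with 8.78 TPM in TG2-KO and 13.5 TPM in WT (-0.57). As a ratio of TPM the widest was Mmp12, with 1.42 TPM in TG2-KO and 0.81 TPM in WT (1.75 times). RNA of TG2-KO livers was extracted on another date than that of the WT livers, so genotype and date cannot be told apart. With PBS, Timp1 had 7.81 TPM in the TG2-KO liver, against 0.30 TPM in the WT liver, and Mmp12 had 1.11 TPM against 0. The neutrophil markers summed to 29.9 TPM in the TG2-KO PBS liver, against 1.73 TPM in the WT PBS liver, and their part was not tested.

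With CTM added to LPS in WT mice, 0 of the 7 genes were 2-fold apart from LPS alone (background 1.59%). Timp1 had 19.0 TPM with LPS plus CTM, against 37.5 TPM with LPS, 50.6% of it (-0.95). Mmp12 had 2.60 TPM with LPS plus CTM, against 0.81 TPM with LPS (0.99), with 1 library each, where in the cells at 24 h the difference was negative. Mmp13 had 10.2 TPM with LPS plus CTM, against 13.5 TPM with LPS (-0.38), and Mmp8 2.59 against 1.67 TPM (0.43). Adam17 had 4.61 TPM with LPS plus CTM, against 6.08 TPM with LPS (-0.34), Timp2 3.35 against 2.55 TPM (0.29) and Adam8 0.87 against 1.16 TPM (-0.21). The neutrophil markers summed to 117 TPM with LPS plus CTM, against 86.6 TPM with LPS, and the Kupffer cell markers to 45.4 TPM against 29.4 TPM. Most of that Kupffer cell gap was Marco, with 26.12 TPM against 13.55 TPM, and 0 of the 5 listed Kupffer cell markers were 2-fold apart.

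The liver partners of these genes were described in the same way. Of 13 listed Adam17 substrates, 0 were higher and 4 lower at least 2-fold in the depleted than in the non-depleted liver (background 8.83% in either direction), among them Icam1 with 31.7 against 120.55 TPM and Tnf with 2.01 against 10.1 TPM. Of 6 listed activators and regulators, Rhbdf2 was the one at least 2-fold apart by that measure, with 8.95 TPM in the depleted and 25.4 TPM in the non-depleted liver (-1.41). Frmd8, which stabilises iRhom proteins at the cell surface, came close to it, with 2.64 TPM in the depleted and 6.11 TPM in the non-depleted liver (-0.97). A2m, a protease inhibitor of plasma, had 167 TPM in the depleted and 50.4 TPM in the non-depleted liver. It had 8.65 TPM in the TG2-KO LPS liver, against 48.0 TPM in the WT LPS liver. None of 11 listed matrix substrates was 2-fold apart with depletion.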

How the data were processed

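The authors' values are TPM for each gene symbol, from Salmon and the build mm10 (GRCm38), per the submitters' processing notes; its version and the annotation are not given in the sources used here. The mRNA kit keeps strand, per the labels' protocols, but whether strand was used in quantification is not given, so reads of a gene and an antisense partner cannot be told apart. TPM sum to 993386 to 999191 per cell library and 153180 to 336332 per liver library, where genes under 2-fold between the WT LPS and PBS livers are not listed. Depth is unknown, so no counting interval is given.

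Genes averaging 1 TPM or more in an experiment entered limma 3.58.1 (R 4.3.3) as log2(TPM + 1), all groups in 1 model with a mean-variance trend; the test was tried on simulated data first. Replicates had r of 0.986 to 0.990, and no 2 libraries were identical. No source says whether they are separate cultures; p-values measure only their spread, which may be technical. At 24 h, LPS and CTM columns carry other replicate numbers than the labels and were assigned to groups only. The members and lists were chosen with earlier results of these data known. Named genes are all members, up to 4 genes per list with the widest change past the threshold and at least 5 TPM, and the 3 genes most like each of the 3 members that vary most. Liver marker and partner genes named beside these (Clec4f, Marco, Cd14, Des, Csf3r, Cxcr2, Icam1, Rhbdf2, Frmd8, A2m) were chosen after their values were seen. Gene positions are from GENCODE vM21. Alternatives were a pseudocount of 0.1, another or no filter, scaling to the median ratio, limma without trend, a replicate block, an added log2 change of at least 1, and leaving out each library.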

Additional observations from a re-analysis of the deposited data

Results flagged for a closer look

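The change with LPS at 12 h differed between Vim-KO and WT cells for 5 genes, by a test of the difference itself (limma, interaction of LPS and genotype). As Vim-KO minus WT on log2(TPM + 1), the difference was -3.52 for Mmp9, -3.47 for Timp1, 2.62 for Mmp12, 1.03 for Adam17 and -0.80 for Mmp13. The Mmp13 call is the one of the 5 that was lost under other settings. The Mmp12 difference lies in the PBS cells, where the Vim-KO libraries hold 0.0886 and 0.151 TPM, against 4.56 and 5.02 TPM in WT cells. For Timp1 and Adam17 the genotypes differed past the threshold with LPS and not with PBS. For Mmp9 the Vim-KO mean was 2.30% of the WT mean with LPS and 1.88% with PBS. As a ratio of means its rise with LPS was thus no smaller in Vim-KO cells, where the PBS libraries held 0.0290 and 0 TPM. The size of its difference therefore depends on the pseudocount (-2.35 with 0.1 TPM in place of 1 TPM). Its sign was negative with either pseudocount, while the ratio of means rests on those Vim-KO PBS libraries near 0.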

How the results depend on the processing

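Over 48 cell results for single genes, 521 values under other settings kept direction and side of the threshold, 44 lost the threshold, 3 gained it and 2 changed sign. Both sign changes were of results that miss the threshold: for Timp1, values with single libraries left out ran from -0.53 to 0.093 for LPS plus CTM against LPS at 24 h, and from -0.20 to 0.074 for Vim-KO against WT cells with PBS. A mean of at least 5 TPM left 2 genes past the threshold in each 24 h comparison, since fewer genes were tested. An added log2 change of at least 1 left 2 (LPS plus CTM against LPS), 1 (Vim-KO against WT, PBS) and 2 (Vim-KO against WT, LPS). Leaving out single libraries gave 2 to 4 genes for LPS plus CTM against LPS; over all genes that comparison gave 2823 calls, and 1094 to 2330 without single libraries, and the interaction 2292 and 1219 to 2649. With the added log2 change, counts over all genes were 2296, 254 and 1229 at 24 h and 2712, 2444, 969, 916 and 710 at 12 h. Same-numbered libraries did not deviate together (r -0.22 to 0.098), so the numbers do not pair them; with a replicate block 3, 6, 5, 3, 5 and 5 genes passed, 1 call fewer in all (Adam17, LPS plus CTM against LPS). At 24 h no paired analysis against PBS was possible because the columns share fewer than 2 numbers. Scaling to the median ratio moved the share of higher among called genes to 45.3% from an unscaled 63.1% (LPS plus CTM against LPS), to 50.7% and 53.2% from 31.6% and 32.9% (LPS and LPS plus CTM against PBS), and to 46.2% from 66.2% (interaction). In liver, a difference of at least 2 left 2 genes (LPS against PBS, WT); a pseudocount of 0.1 gave 1 (LPS plus CTM against LPS), 2 (depletion) and 5 (LPS against PBS, TG2-KO), and scaling gave 2 (LPS plus CTM against LPS). The liver scaling used only genes listed for differing between the WT LPS and WT PBS livers, so its counts decide nothing. The causes were not tested. TPM hold no depth, so values under 1 TPM are uncertain.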
